A study of Saccharomyces cerevisiae with 2 samples.

Results

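The mating pheromone genes STE2, BAR1, STE6, MFA1, STE3, STE4, STE5, FUS3, STE12 and FUS1 were examined in budding yeast as a list of 10 of the 6002 nuclear protein-coding genes of the R64 annotation. They were taken by name and not by a measured value, though with earlier results of these data known. DNase I hypersensitive sites (DHS), which are stretches of chromatin that the nuclease cuts readily, and footprints, which are short protected stretches inside DHS, had been mapped in 1 library per strain. One strain carried the temperature-sensitive Hsp90 allele G170D, and the other was wild type (WT) for it. Both strains had the BY4741 background, were grown in YPD, a rich medium, at 37 °C for 6 h, and the labels name no pheromone treatment. The G170D culture began at an OD of 0.37 and the WT culture at an OD of 0.25, and both were taken at 0.65 to 0.7, so that growth and strain cannot be told apart. The labels do not say which Hsp90 gene carries the allele. With 1 library per strain there is no replicate error, and each difference below describes these 2 libraries without a test. The number of reads behind the lists is unknown.

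In yeast mating, each haploid cell type secretes a peptide pheromone and carries a receptor for the pheromone of the other type. The occupied receptor frees the G protein subunits Ste4 and Ste18, which recruit the scaffold Ste5 to the membrane, and a kinase cascade of Ste11, Ste7 and Fus3 on that scaffold activates the transcription factor Ste12. Ste11 is known to associate with Hsp90. Genes used by a cells alone are called a-specific, those used by alpha cells alone alpha-specific, and those used by both and silenced in diploids haploid-general. BY4741 is known as a strain of mating type a, in which a-specific genes are normally transcribed and alpha-specific genes are not. Mating type was not read from these data. STE2, BAR1, STE6 and MFA1 are a-specific, STE3 is alpha-specific, and STE4, STE5, FUS3, STE12 and FUS1 were placed in the haploid-general class.

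Among these 10 genes, upstream open chromatin was listed mainly in WT, and 6 of them had none in either strain (3804 of all 6002 genes). A DHS touched the 500 bp before the coding start of 1 of the 10 genes in G170D (10%, exact 95% interval 0.253 to 44.5), against 29.6% of all genes. In WT it was 4 of 10 (40.0%, 12.2 to 73.8), against 31.6% of all genes. STE2 had an upstream DHS in both strains (1 of 10, against 24.6% of all genes), and those with one in WT only were STE6, MFA1 and FUS3. WT-only windows made up 30.0% of the list (6.67 to 65.2) and 7.05% of all genes. G170D-only windows numbered 0 of 10, against 4.98% of all genes, and a count of 0 allows up to 30.8% here. Intervals in this text are exact 95% intervals and cover counting error only. Those of gene shares treat genes as independent. Those of footprint ratios and shares treat footprints as independent, although many lie in the same DHS, so these may be too narrow.

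Summed over the 10 upstream windows, DHS covered 229 bp in G170D and 1018 bp in WT, a ratio of 0.225, against a ratio of 0.909 over all genes. The windows held 2 footprints in G170D and 20 in WT. STE2 supplied the whole G170D length, and without it the sum was 0 bp in G170D. The median gene of the list had 0 bp upstream in each strain, as had the median of all genes, so the sums rest on 4 genes. With windows of 300 bp the ratio was 0.0872.

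**Figure D1:**
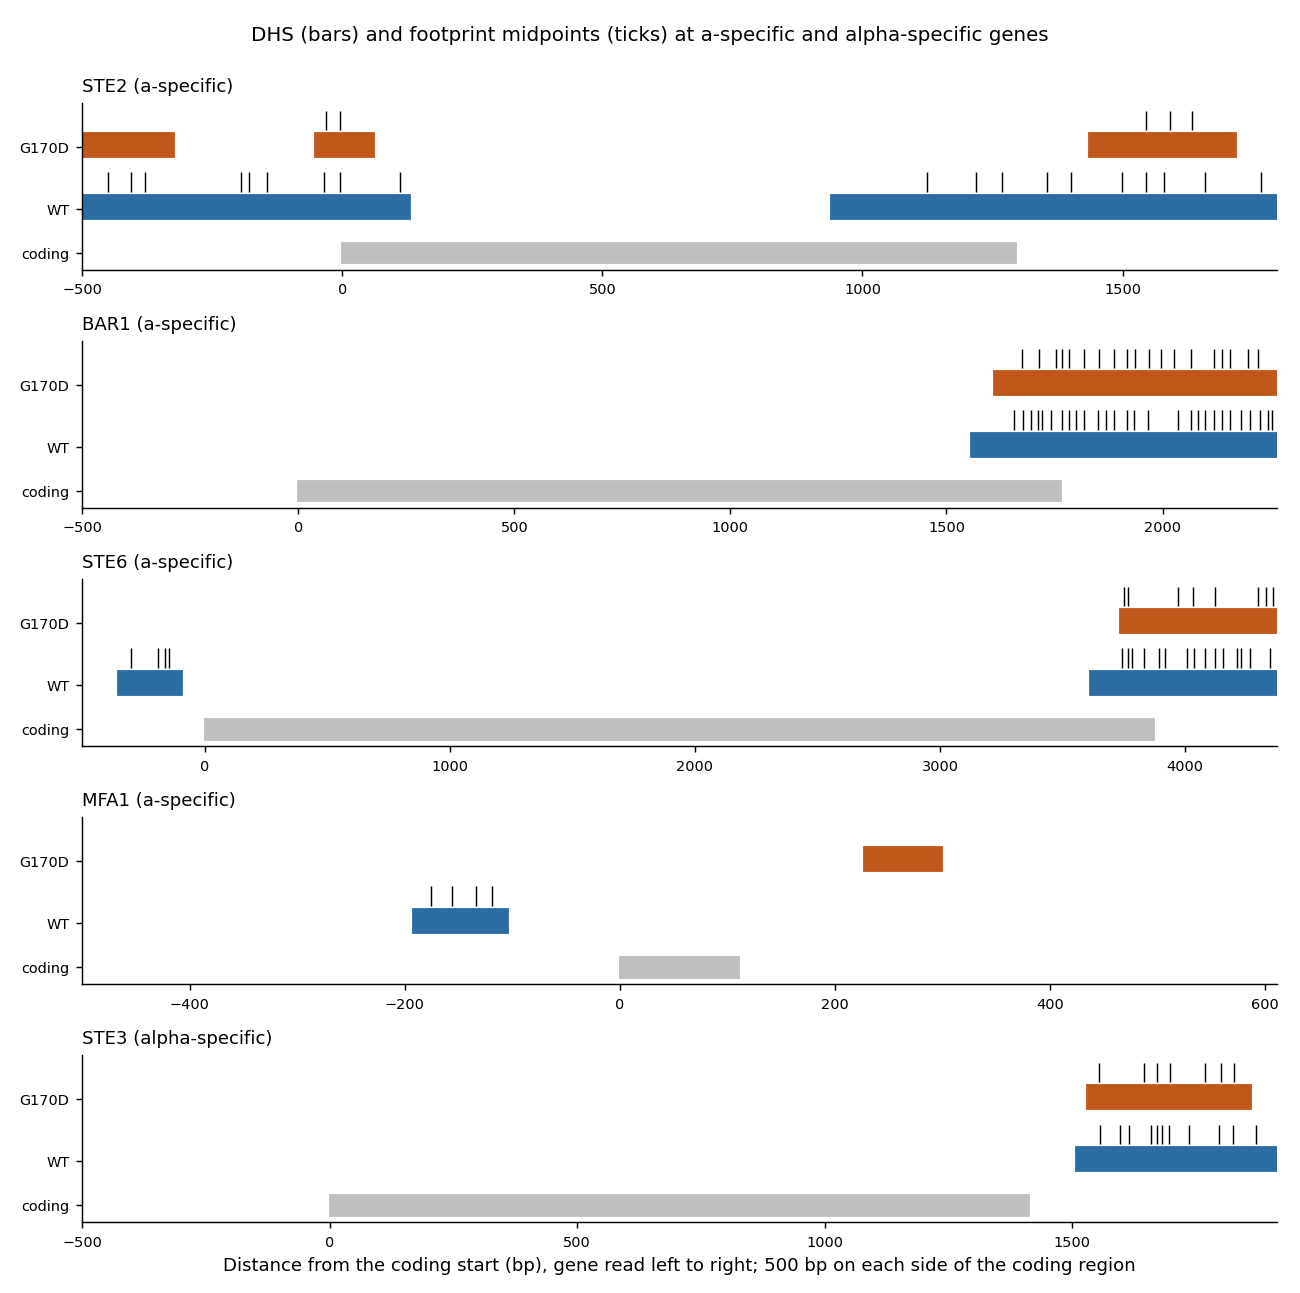
DHS (coloured bars) and footprint midpoints (black ticks) of G170D (orange) and WT (blue) at the 4 a-specific genes and at STE3, with the coding region in grey; the x axis is the distance from the coding start in bp, with 500 bp shown on each side. Upstream bars are seen at STE2 in both strains and at STE6 and MFA1 in WT, while bars after the coding end are seen at STE2, BAR1, STE6 and STE3 in both.

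STE2 (YFL026W, plus strand, chromosome VI, 82580 to 83875 in sacCer3) encodes the receptor for alpha factor. Around it the DHS were narrower and more broken up in G170D. The G170D library listed DHS of 261 bp and 113 bp upstream, spanning positions -584 to -324 and -52 to 60 counted from the coding start, where the first coding base is 0. The WT library listed a single DHS of 698 bp there, from -567 to 130. The DHS length in the upstream window was thus 229 bp in G170D and 500 bp in WT, and it covered the whole window in WT. With windows of 1000 bp the strains were closer, at 493 bp in G170D and 567 bp in WT. The stretch between the G170D sites held WT footprints at -194.5, -178.5 and -144.5. The last of these was 30 bp long and was the strongest WT footprint around STE2, at place 6371 of 45019 in the WT list by the authors' score. Close to the coding start the footprints lay near each other: G170D footprints were centred at -30.5 and -4, and WT footprints at -34.5 and -5. The outer DHS also reached the upstream window of the neighbour GYP8, which held 261 bp in G170D and 400 bp in WT.

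The coding region and the downstream side of STE2 differed in the same direction. The coding region held 61 bp of DHS and 0 footprints in G170D, against 488 bp and 4 footprints in WT. In G170D all of this length was the inner part of the upstream DHS, which ended at position 60. In WT the upstream DHS ended at position 130 and held 1 of the footprints, at position 111. After the coding end the window held 283 bp and 3 footprints in G170D and was covered over all 500 bp in WT, with 7 footprints. The lengths after the coding end belonged to a 283-bp DHS in G170D and a 1585-bp DHS in WT that began inside STE2 at position 939. Both reached into BST1, a convergent gene whose coding region lies 269 bp beyond that of STE2. Over the coding region and both flanks STE2 differed by -915 bp (G170D minus WT), with STE5 next at -900 bp. With flanks of 300 bp STE2 differed by -814 bp, and with flanks trimmed at neighbouring coding regions by -837 bp, both less than STE5 at -900 bp. Outside the list, the genes whose coverage over the 3 windows was most like that of STE2 in both strains were SUA5, RPL9B and UBC5, with summed distances of 38.0, 52.6 and 57.2 percentage points over 6 values.

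BAR1 (YIL015W, plus strand, chromosome IX, 322342 to 324105) encodes the secreted protease that degrades alpha factor. Its upstream window held no DHS in either strain, in contrast to the strong site at its other end. That DHS spanned 2330 bp in G170D (323951 to 326280), at place 74 of 2875 by the authors' score. In WT it spanned 2476 bp (323899 to 326374), at place 94 of 3155. It covered the 500 bp after the BAR1 coding end fully in both strains and also lay over MNT3, YIL014C-A and a pair of tRNA genes, one of which lies 197 bp beyond the coding end. The part of the site in the BAR1 coding region measured 155 bp in G170D and 207 bp in WT. Around BAR1 there were 19 footprints in G170D and 28 in WT. Of the G170D footprints, 16 had a WT midpoint within 5 bp, and the strongest of both strains was centred at the same base, position 2065. BAR1 thus had no upstream DHS and an open end in both libraries.

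STE6 (YKL209C, minus strand, chromosome XI, 42423 to 46295) encodes the transporter that exports a-factor. Upstream it held 0 bp of DHS and 0 footprints in G170D, against 260 bp and 4 footprints in WT, in a DHS from -352 to -93 at place 2069 of the WT list. This WT site overlapped no G170D DHS. The tRNA gene TRT2 lies 439 bp upstream of the STE6 coding start, beyond the outer edge of the site. At the other end a DHS ran over the last part of the coding region into UBA1, with 866 bp in G170D and 1004 bp in WT. Its outer edge differed by -14 bp between the strains and its edge inside STE6 by 124 bp, so the G170D site stopped short mainly within the coding region. The strongest footprint of each strain lay at nearly the same place there, at 4033.5 in G170D and 4035.5 in WT.

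MFA1 (YDR461W, plus strand, chromosome IV, 1385176 to 1385286) encodes the precursor of a-factor and is the shortest of these genes, with 111 coding bp. The strains had no common DHS around it. G170D had a 73-bp DHS without a footprint after the coding end, from 227 to 299, at place 2388 of 2875. WT had an 88-bp DHS upstream, from -192 to -105, at place 2487 of 3155, with footprints centred at -175.5, -156, -134 and -119. Both sites were in the weaker part of their lists.

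STE3 (YKL178C, minus strand, chromosome XI, 113215 to 114627) encodes the receptor for a-factor and is the alpha-specific gene of the list. No DHS touched its upstream window or its coding region in either strain. After the coding end a DHS of 333 bp was listed in G170D and one of 429 bp in WT, with the whole G170D site inside the WT site. Within the window these gave 333 bp and 7 footprints in G170D and 405 bp and 11 footprints in WT. The difference over the coding region and both flanks was -72 bp, and it was -21 bp with flanks of 300 bp and -364 bp with flanks of 1000 bp. In the 1000 bp upstream of STE3, G170D held 0 bp of DHS and WT 268 bp. The site after the coding end lay in the gap before COY1 and covered 238 bp in G170D and 313 bp in WT of the upstream window of COY1. With footprint lists of the same number the count at STE3 was 7 in G170D and 4 in WT, so its order depends on the list length.

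**Figure D2:**
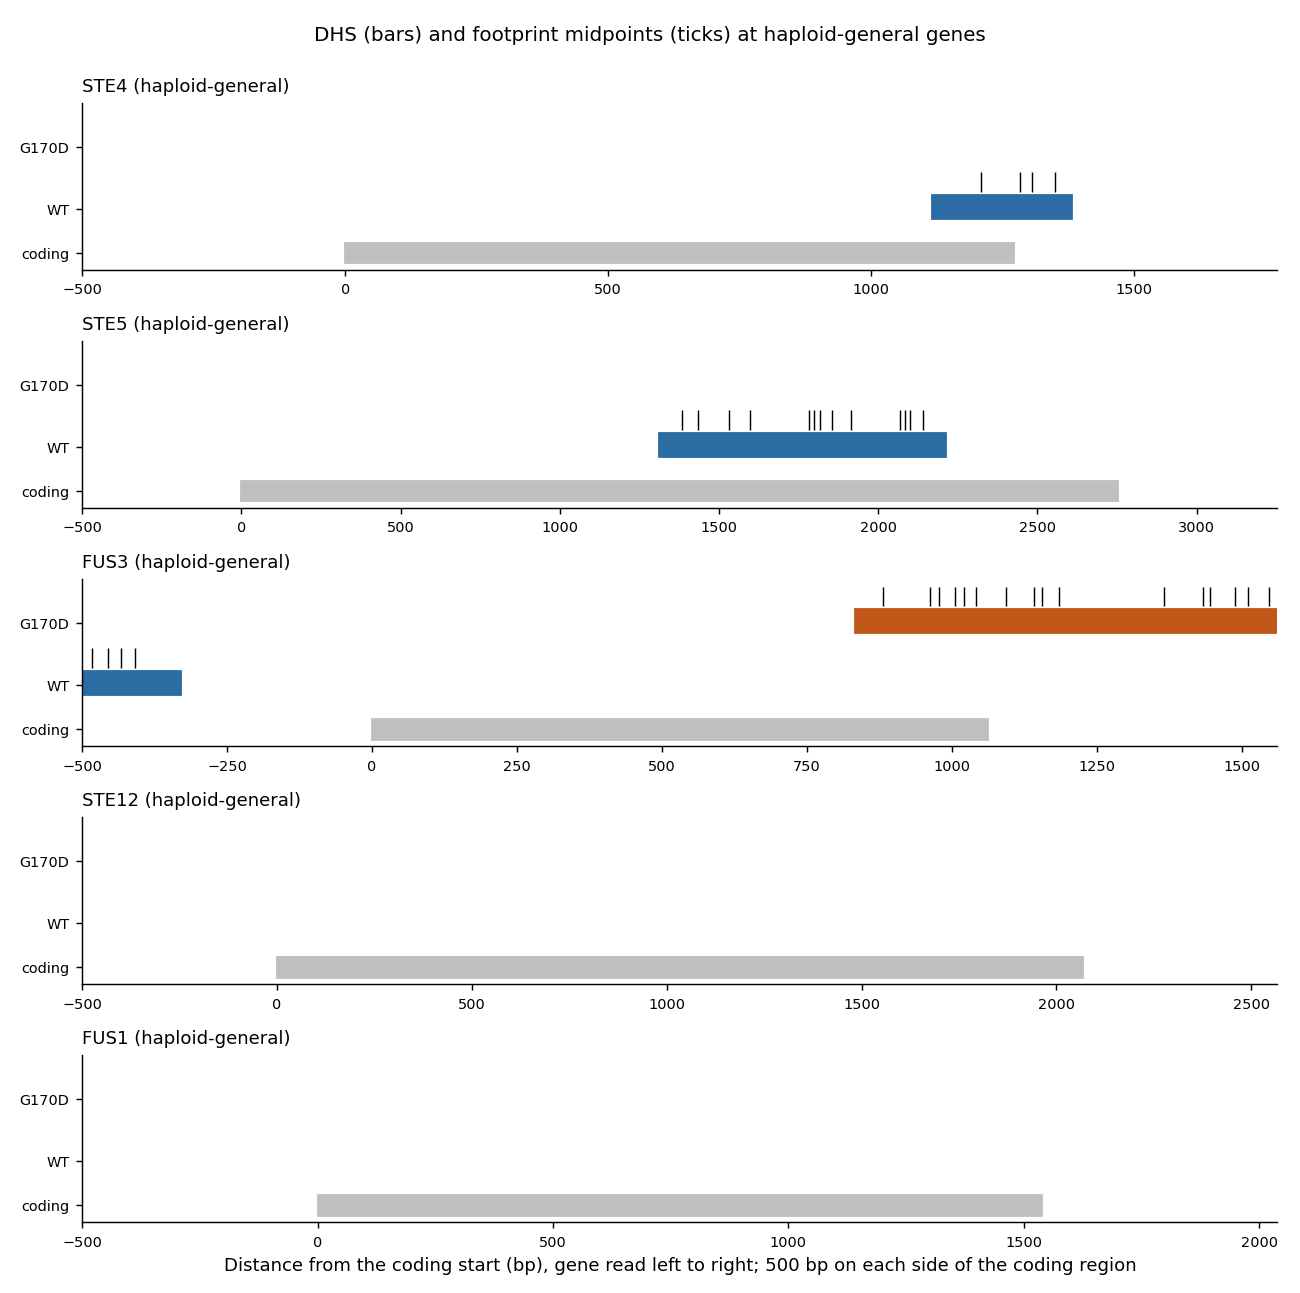
DHS (coloured bars) and footprint midpoints (black ticks) of G170D (orange) and WT (blue) at the 5 haploid-general genes, drawn by distance from the coding start in bp with 500 bp on each side. STE4 and STE5 have bars in WT only, FUS3 has bars at opposite ends in the strains, and STE12 and FUS1 have none.

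STE4 (YOR212W, plus strand, chromosome XV, 742910 to 744181) encodes the beta subunit of the G protein. No DHS lay in its windows in G170D, where the nearest was 716 bp upstream. In WT a 267-bp DHS spanned the coding end, from 1115 to 1381, with 157 bp in the coding region, 110 bp after it and 4 footprints in all. All 4 were weak, the strongest being at place 31638 of 45019.

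STE5 (YDR103W, plus strand, chromosome IV, 658350 to 661103) encodes the scaffold of the kinase cascade. Its DHS lay inside the coding region and was listed in WT only. It measured 0 bp and 0 footprints in G170D, against 900 bp and 13 footprints in WT, where it ran from position 1312 to 2211 and covered 32.7% of the coding region. By width this site was at place 5 of the 892 DHS found in WT alone, whereas by score it was at place 2180 of 3155 in the WT list, so it was wide and weak. The nearest G170D DHS lay 1820 bp after the coding end, inside SPO71. The flanks of STE5 held no DHS in either strain.

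FUS3 (YBL016W, plus strand, chromosome II, 192451 to 193512) encodes the mitogen-activated protein kinase of the pathway, and it differed in both directions. At its end G170D listed a DHS of 980 bp, from 834 to 1813, that overlapped no WT DHS. The coding region held 228 bp and 6 footprints in G170D, against 0 bp and 0 footprints in WT. After the coding end the G170D site filled the 500-bp window and held 10 footprints there, and WT had no DHS in it. This site had place 157 of 2875 by score in the G170D list and place 5 of the 508 DHS found in G170D alone. Of the 16 G170D footprints around FUS3, 5 were in the strongest 10% of the G170D list, with the strongest at position 1094 (place 1008 of 33585). The same DHS filled the 500 bp upstream of ACH1, an enzyme gene of acetate metabolism, with 10 footprints in G170D and 0 in WT.

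Upstream of FUS3 the order was the opposite. The window held 0 bp and 0 footprints in G170D, against 170 bp and 4 footprints in WT, at the far end of the window. The WT site was 635 bp wide, from -965 to -331, and overlapped PEP1, the next gene, whose own upstream window held 0 bp in G170D and 500 bp in WT. Over the 3 windows together FUS3 held 728 bp in G170D and 170 bp in WT, and it was the single gene of the list with more DHS length in G170D. No base around FUS3 lay in a DHS of both strains. Window size decided the upstream value: with 300 bp FUS3 had 0 bp in both strains, and with 1000 bp it had 0 bp in G170D and 635 bp in WT.

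STE12, the transcription factor gene (YHR084W, plus strand, chromosome VIII, 274174 to 276240), and FUS1, a gene for cell fusion that pheromone induces (YCL027W, plus strand, chromosome III, 71803 to 73341), had no DHS in any window in either strain. For STE12 the nearest DHS was 1992 bp upstream in G170D and 2041 bp upstream in WT. FUS1 lay in a longer stretch without sites, with the nearest at 8761 bp in G170D and 8760 bp in WT, over KCC4 and a tRNA gene. A region without a listed DHS is one that did not pass the authors' threshold, and that threshold is not known here. Of all genes, 33.6% had no DHS over the 3 windows in either strain, against these 2 of 10.

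**Figure D3:**
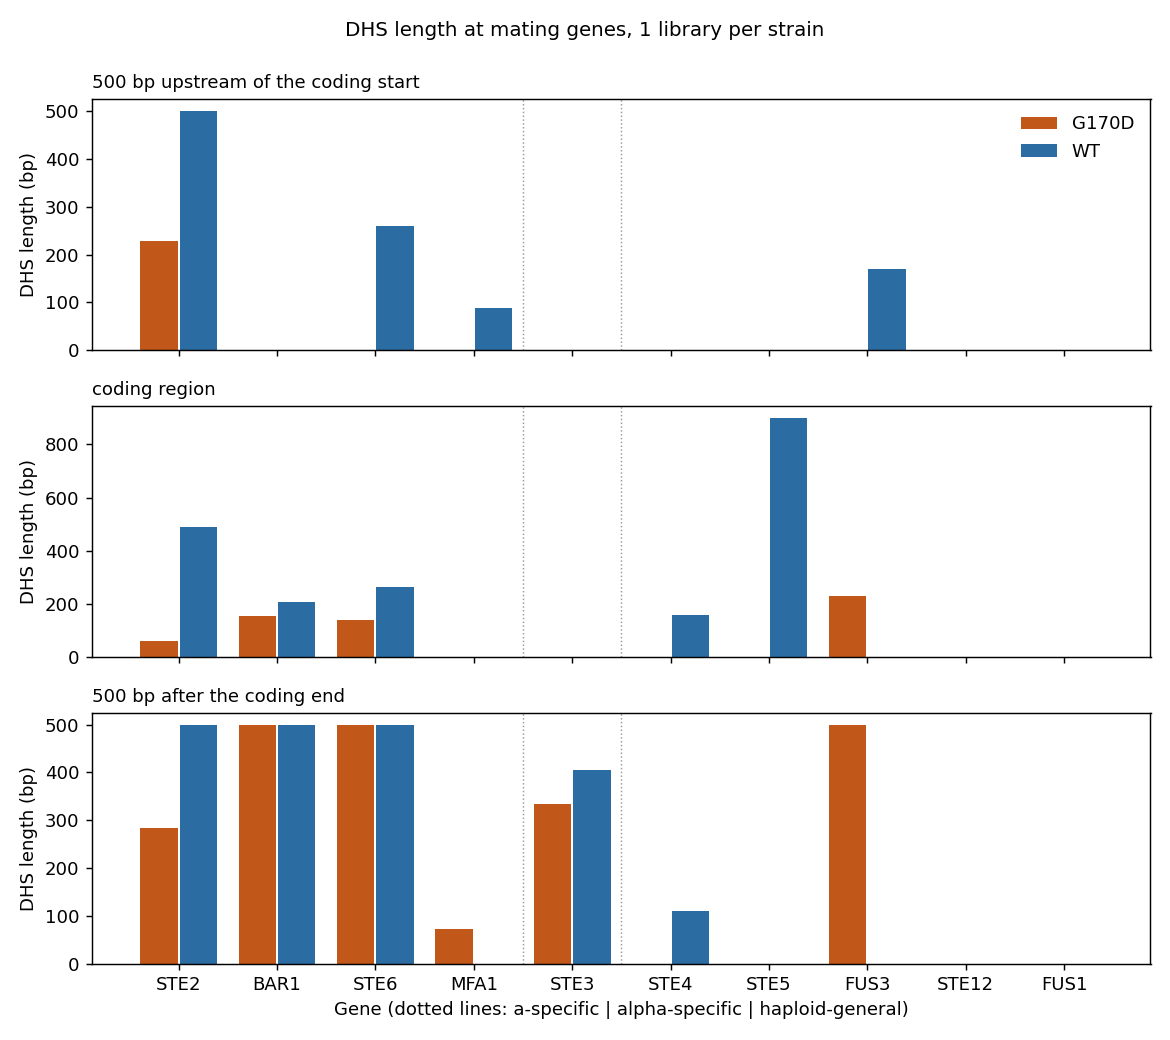
DHS length in bp upstream of, inside and after the coding region of each of the 10 genes, with G170D (orange) left of WT (blue), 1 library per strain; dotted lines part the a-specific, alpha-specific and haploid-general genes. Upstream, WT bars stand at STE2, STE6, MFA1 and FUS3 and a G170D bar stands at STE2 alone, while after the coding end FUS3 reaches 500 bp in G170D and 0 bp in WT.

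The sums over all 10 genes rest on a few genes in each window. Coding regions held 582 bp of DHS in G170D and 2014 bp in WT, a ratio of 0.289, against 0.775 over all genes. STE5 supplied 900 bp of the WT sum, and without it the sums were 582 bp in G170D and 1114 bp in WT, a ratio of 0.522. Without FUS3 the ratio was 0.176. A DHS touched the coding region of 4 genes in G170D (40.2% of all genes did so) and of 5 in WT (44.9%). After the coding ends the sums were 2189 bp in G170D and 2015 bp in WT, a ratio of 1.09, against 0.866 over all genes. Here 6 genes were touched in G170D (39.3% of all genes) and 5 in WT (43.2%). The direction after coding ends came from FUS3, which supplied 500 bp in G170D and 0 bp in WT. Without it the sums were 1689 bp in G170D and 2015 bp in WT, a ratio of 0.838.

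Taking the coding region and both flanks together, the DHS covered 3000 bp in G170D and 5047 bp in WT, a ratio of 0.594, against 0.836 over all genes. Base by base, 2199 bp lay in DHS of both strains, 801 bp in G170D alone and 2848 bp in WT alone. A DHS was present at 6 genes in G170D (57.5% of all genes) and at 8 in WT (60.8%). Length was lower in G170D by 100 bp or more at STE2, STE5, STE6 and STE4 (4 of 10, against 29.8% of all genes). It was higher by as much at FUS3 (1 of 10, against 12.4%). Upstream alone, 3 genes were lower by that much (9.28% of all genes) and 0 were higher (5.78%). The shares over the 3 windows are near the background, and those upstream rest on STE2, STE6 and FUS3. Which genes pass upstream depends on the window: with 1000 bp they were FUS3, STE6, STE3 and STE4, with STE2 at -74 bp, and with 300 bp FUS3 held no DHS in either strain. Without FUS3 the joined ratio was 0.466, and without STE2 it was 0.682.

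The classes are described by where their DHS lay. Upstream windows of the 4 a-specific genes were covered over 11.5% of their length in G170D and 42.4% in WT, with a median of 0 bp in G170D and 174 bp in WT. Those of the 5 haploid-general genes were covered over 0% in G170D and 6.8% in WT, with a median of 0 bp in both, and that of STE3 over 0% in both. All genes together had 17.9% in G170D and 19.7% in WT. The class contrast in WT was largely lost with windows of 1000 bp, where coverage in WT was 22.9% for a-specific genes, 18.0% for haploid-general genes and 26.8% for STE3. In G170D it was then 12.3% for a-specific genes, 1.94% for haploid-general genes and 0% for STE3. After the coding end the a-specific genes were covered over 67.8% in G170D and 75.0% in WT, against 25.2% of the windows of all genes in G170D and 29.1% in WT. In WT this was full cover at STE2, BAR1 and STE6 and 0 bp at MFA1. STE3 was covered to a like extent there, over 66.6% in G170D and 81.0% in WT. The haploid-general genes were covered over 20.0% in G170D, all at FUS3, and 4.4% in WT, all at STE4. Each of the 4 a-specific genes had a DHS somewhere in its windows in both strains, and so had STE3. Among the haploid-general genes this held for FUS3 alone. At both MFA1 and FUS3 the DHS of the strains did not overlap, with 0 bp shared. In all, a DHS in both strains, overlapping or not, was found at 6 of 10 genes, against 3109 of all 6002 genes. The a-specific genes include both with a tRNA gene inside the windows, BAR1 and STE6, or 2 of 10 against 4.67% of all genes, and the part of tRNA genes in the class difference was not tested. With 4, 1 and 5 genes, no test between classes was made.

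**Figure D4:**
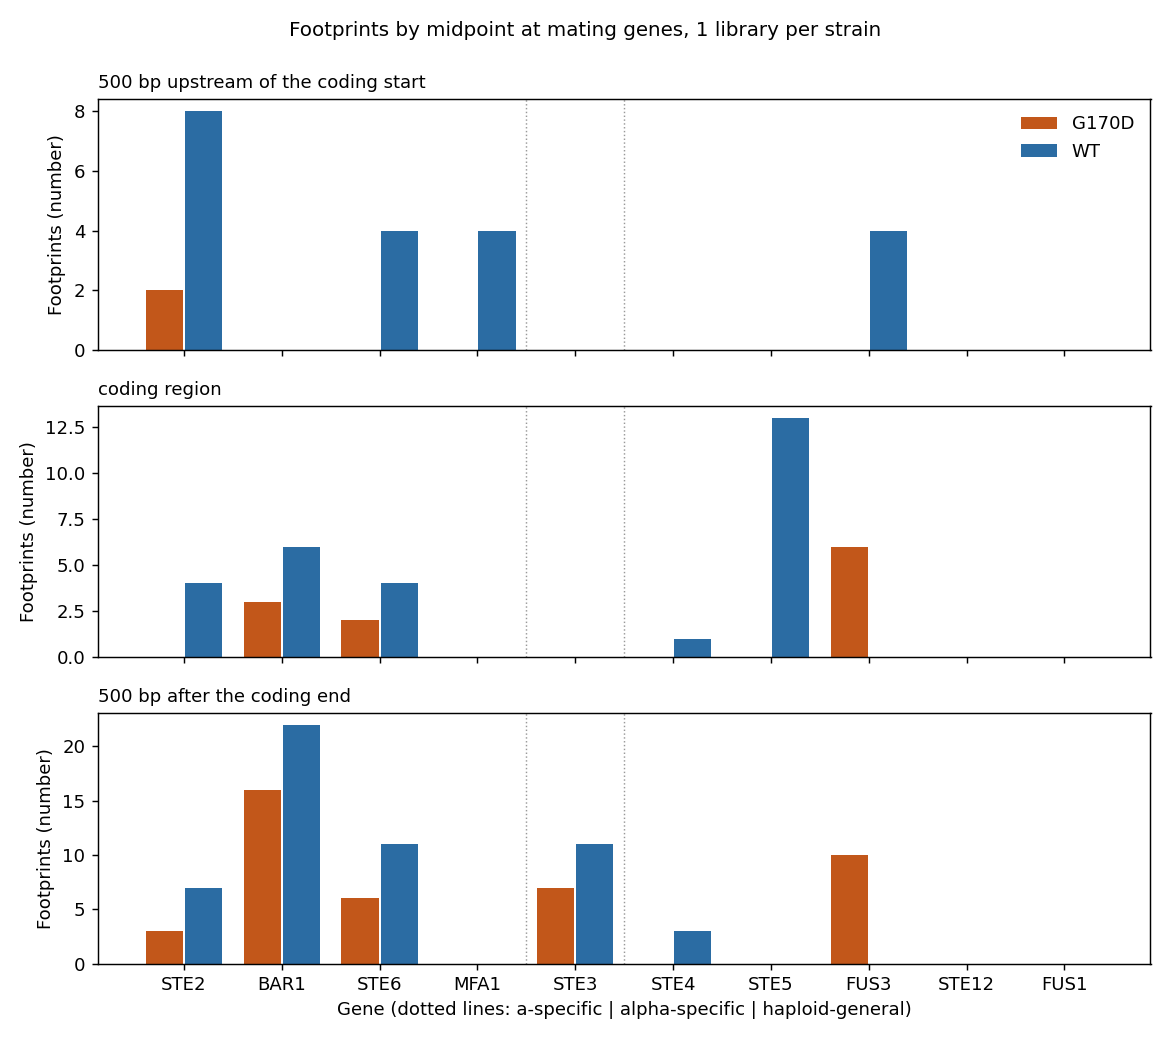
Number of footprints, counted by midpoint, upstream of, inside and after the coding region of each of the 10 genes, with G170D (orange) left of WT (blue), 1 library per strain. STE5 has 13 in its coding region in WT and 0 in G170D, and after the coding end BAR1 has 16 in G170D and 22 in WT while FUS3 has 10 in G170D and 0 in WT.

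Footprints followed the DHS, since every footprint lay in a DHS of its own library. Over the 3 windows the 10 genes held 55 footprints in G170D and 102 in WT, a ratio of 0.539 (0.381 to 0.756), against 0.747 (0.737 to 0.757) over all genes. When the WT footprint list was shortened to the 33585 strongest, the number in G170D, the counts were 55 and 72, a ratio of 0.764 (0.528 to 1.10). The ratio over all genes was then 1.02. By class the counts were 32 in G170D and 70 in WT at a-specific genes, 7 and 11 at STE3, and 16 and 21 at haploid-general genes, where all 16 were at FUS3. BAR1, STE2 and STE6 together held 32 of the 55 G170D footprints.

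Where the other strain also had a DHS, most G170D footprints of these genes overlapped a WT footprint by any length. The share that would overlap by footprint density alone was not computed. Of 39 such G170D footprints, 31 overlapped a WT footprint (79.5%, 63.5 to 90.7), against 72.7% of all G170D footprints in shared DHS. Of 62 such WT footprints, 32 overlapped a G170D footprint (51.6%, 38.6 to 64.5), against 61.2%. By overlap, BAR1 had the highest share with 17 of 19 in G170D, followed by STE2 with 4 of 5, STE3 with 5 of 7 and STE6 with 5 of 8. A WT midpoint within 5 bp was found for fewer, 27 of the 39 G170D footprints. These were 16 at BAR1, 3 at STE2, 5 at STE3 and 3 at STE6. Intervals of the overlap shares overlap widely between the genes. Which proteins left the footprints was not analysed here.

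Outside the 10 genes, 56 further genes of mating and pheromone response were read in the same windows. Upstream they held a DHS in 23 genes in G170D and 22 in WT, against 29.6% and 31.6% of all genes. In both strains it was 20 (24.6% of all genes), in G170D only 3 (4.98%) and in WT only 2 (7.05%). Their upstream DHS length had a ratio of 0.963, against 0.225 for the 10 genes and 0.909 over all genes. By length, 7 were lower in G170D and 7 higher, against 1121 lower and 674 higher of all 6002 genes. The difference between the lists was not tested.

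**Figure D5:**
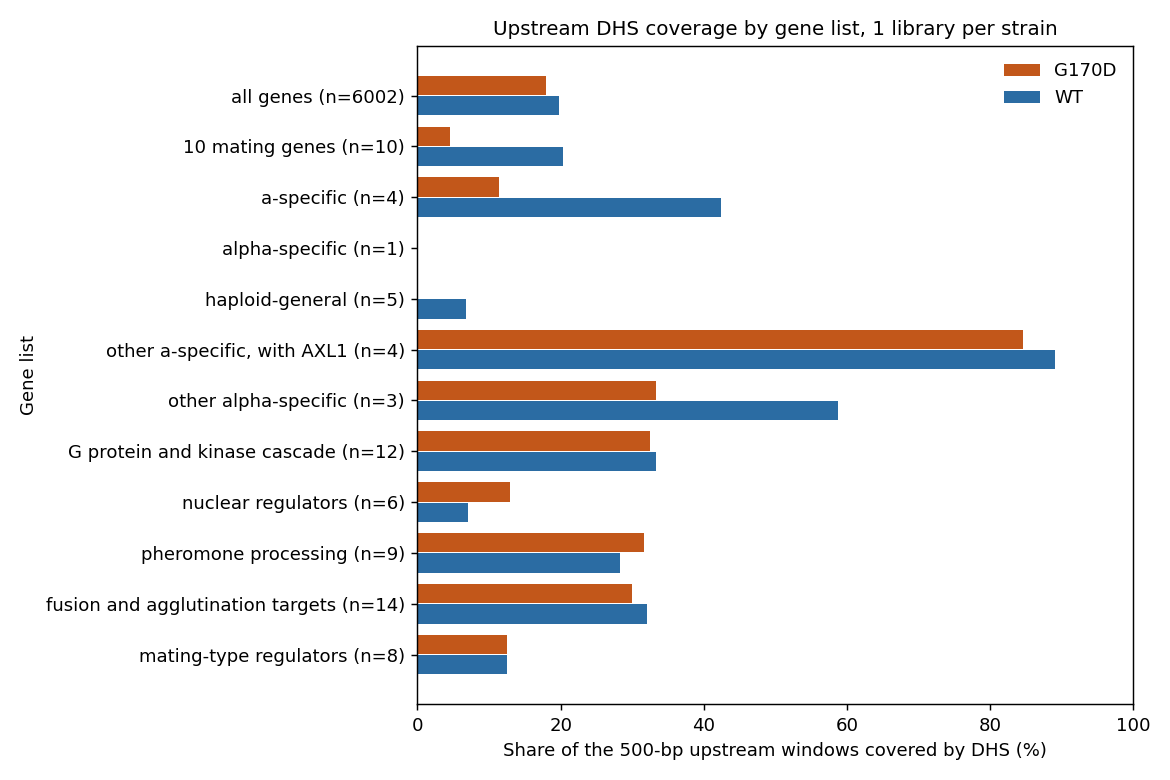
Share of the 500-bp upstream windows covered by DHS, in percent, for all genes, the 10 mating genes, their 3 classes and 7 further lists, with G170D (orange) above WT (blue) and the number of genes in brackets. The a-specific genes of the list stand at 11.5% in G170D and 42.4% in WT, and the further a-specific list, which includes the misplaced AXL1, at 84.6% in G170D and 89.1% in WT.

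The further a-specific list, in which AXL1 is misplaced since haploids of both types use it, was open upstream in both strains. Without AXL1 the upstream coverage of the list was 79.4% in G170D and 85.5% in WT. AGA2, an agglutinin subunit gene, was covered over 500 bp in each strain, with 5 footprints in each. MFA2, the other a-factor gene, held 456 bp and 11 footprints in G170D and 500 bp and 17 footprints in WT, unlike MFA1. ASG7 held 235 bp in G170D and 282 bp in WT. AXL1, a protease gene of a-factor maturation, was covered over 500 bp in both. The alpha-specific genes were not uniform: MF(ALPHA)1, which encodes alpha factor, had a fully covered window in both strains, with 13 footprints in G170D and 12 in WT. SAG1, the alpha agglutinin gene, held 0 bp in G170D and 381 bp in WT.

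Signalling genes were read next. Of 12 genes of the G protein and kinase cascade, 5 had an upstream DHS in each strain, against 29.6% of all genes in G170D and 31.6% in WT. They were the same 5 in both strains, counting 1 bp at STE7 in WT. STE18, the gamma subunit gene, held 212 bp and 4 footprints in G170D and 500 bp and 11 footprints in WT. STE7, a kinase gene of the cascade, held 241 bp in G170D and 1 bp in WT. SST2, a negative regulator of the G protein, was covered over 500 bp in both, with 9 footprints in G170D and 5 in WT. Among 6 nuclear regulators, MCM1, which encodes a factor acting at both a-specific and alpha-specific genes, held 124 bp in G170D and 0 bp in WT, and KAR4 held 264 bp in G170D and 212 bp in WT.

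Of 9 genes for pheromone processing, 4 had an upstream DHS in G170D and 3 in WT. The shares over all genes, for this and the next lists, were 29.6% in G170D and 31.6% in WT. KEX2, a protease gene of alpha factor maturation, held 85 bp in G170D and 0 bp in WT. RAM1, a farnesyltransferase subunit gene, held 342 bp in G170D and 275 bp in WT, and KEX1 500 bp in both. Of 14 fusion and agglutination genes, 6 had an upstream DHS in each strain, with 5 in both, 1 in G170D only and 1 in WT only. PRM6 held 0 bp in G170D and 330 bp in WT, while KAR3, a motor protein gene of nuclear fusion, held 410 bp in G170D and 141 bp in WT. PRM3, also of nuclear fusion, held 143 bp in G170D and 0 bp in WT. Among 8 mating-type regulators the daughter-cell repressor gene ASH1 was the one with an upstream DHS, of 500 bp in both strains.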

How the data were processed

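Nuclei of 1 culture per strain were digested with DNase I, and the fragments were sequenced for 101 cycles on 2 lanes. According to the labels the fragments were short, yet a size over 650 bp is stated, and this was not resolved. Bowtie 0.12.8 was used with sacCer3, per the submitters' processing notes. The authors deposited DHS and footprints with a score per region, and neither the formula of the score nor the thresholds are known here. The file names of the footprints point to dnase2tf. G170D had 2875 DHS and 33585 footprints, and WT had 3155 DHS and 45019 footprints. Sequencing depth is unknown, so its part in these list lengths was not tested. Scores served to rank regions within a list, with the most negative footprint score as the strongest.

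Genes were taken from the R64 gene table, the assembly of sacCer3, with the strand read from the systematic name. The 10 listed and 56 further genes all matched by symbol. Windows were the coding region and 500 bp on each side. At least 1 bp of DHS counted as touching a window, footprints were counted by midpoint, and coordinates start at 1. Intervals are exact: Clopper-Pearson for shares, and binomial for ratios of footprint counts. No test was made. Counts were computed in Python 3.11.15 (pandas 2.3.3, numpy 2.4.6, scipy 1.17.1). The counting was checked against a base-by-base count on random subsets of the deposited WT regions.

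The genes and lists were chosen with earlier results of these data known. Named genes were the 10 listed, neighbours in their windows, up to 3 per further list with the largest difference in upstream DHS length, and the 3 genes most like the listed gene with the largest difference. AGA2, GYP8, COY1, PEP1, ACH1, MNT3, YIL014C-A and KCC4 were named after their values were seen. Promoter motifs, planned as a description, were left out because genome sequence was not used here. Alternatives were a minimum of 50 bp for a DHS in a window or for a difference, flanks of 300 or 1000 bp, lists of the same number, the strongest footprints, counting by overlap, and windows trimmed at neighbouring coding regions. Leaving out single genes, and class coverage with other window sizes, were chosen after seeing the data.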

Additional observations from a re-analysis of the deposited data

How the results depend on the processing

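Among alternative values for counts, ratios and coverage over the 10 genes, their classes and the further a-specific list, 73 stayed within 1.5 times of the value given (for the footprint ratio, within its interval), 13 did not, and 1 changed direction. With windows of 1000 bp, 2 genes had an upstream DHS in G170D and 7 in WT. With windows of 300 bp the ratio of upstream DHS length was 0.0872, and without STE2 it was 0. The ratio in coding regions was 0.522 without STE5 and 0.176 without FUS3, and the ratio after coding ends, without FUS3, turned to 0.838. Upstream coverage with 1000 bp was 22.9% in WT at a-specific genes, 1.94% in G170D and 18.0% in WT at haploid-general genes, and 26.8% in WT at STE3. With 300 bp it was 4.33% in G170D at a-specific genes and 0% in WT at haploid-general genes. With footprint lists of the same number the footprint ratio was 0.764. The cause was not tested, except that leaving out a gene removes its own length. Of 48 alternative values for single genes, 7 moved by over 1.5 times, all with other window sizes. DHS lists of the same number left the DHS values of the 10 genes as they were, since each of their WT sites ranked within the 2875 strongest. No paired analysis was possible because each strain had 1 library. Leaving out replicates was not possible for the same reason.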
